A study of Mus musculus with 9 samples.

Results

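The genes that mark macrophages and leukocytes were followed in the hearts of NSG mice. The set holds 10 genes, chosen by name: Csf1, Csf1r, Ptprc, Itgam, Adgre1, Fcgr1, Mertk, Tyrobp, Cd68 and Aif1. All 10 were found by symbol among the 13890 genes counted, and all 10 stayed among the 13364 genes tested. The 9 libraries came from male mice aged 8 weeks at the start, with hearts taken in week 3, and each group had 3 mice. Sham mice (S, animals 2, 3 and 5) had surgery without tumour cells and saline injections. Mice labelled as hosts of splenic HCT116, a human colorectal cancer line that spreads from the spleen to the liver (T, animals 11, 12 and 15), received saline. Hosts of the same cells given ACVR2B/Fc weekly, a soluble receptor that traps myostatin, activins and related ligands, form the A + T group (animals 20, 21 and 22). All groups shared the NSG background, which lacks mature T cells, B cells and NK cells and keeps macrophages, monocytes and neutrophils.

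Macrophages are the main resident immune cells of the heart, where they clear debris and dying cells. They depend on CSF1, a growth factor made largely by stromal and endothelial cells, which acts through the receptor CSF1R on the macrophage. The other members sit on or in the same cells: CD45 (Ptprc) marks all leukocytes, CD11b (Itgam) marks myeloid cells, F4/80 (Adgre1) and CD68 mark macrophages, and Fc receptors, MERTK and the TYROBP adaptor serve uptake and signalling. In bulk heart RNA, fewer cells of a type and less RNA per cell cannot be told apart.

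The library totals lay between 12392222 and 19732471 counts, and 3 counts were worth 0.152 to 0.281 CPM (counts scaled to the size of the library). The ribosomal transcript Rn45s took 4.57 to 19.6% of the counts. Cardiomyocyte genes summed to 51751 to 81627 CPM, so all libraries contained heart muscle, with animals 22 (51751 CPM) and 12 (57829 CPM) lowest. Of the 9 listed T cell genes, Cd4 alone was among the genes analysed here, at 0.308 to 1.01 CPM. The label T needs care, because the fold changes of T vs. S matched those in the study's gene list for sham mice given ACVR2B/Fc and not those for tumour hosts. The group is therefore called by its label, and any direction involving T refers to the libraries so labelled. Animals 12 (T) and 22 (A + T) stood apart through genes of airway and lung epithelium, which summed to 195 and 1436 CPM against 0.885 to 3.81 in the other 7 libraries. Animal 22 also had 218 CPM of summed neutrophil genes, whereas the other libraries had 7.08 to 64.5. Counts of members were also taken without these animals, as were list counts where that moved them by over 1.5 times.

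Promoter sequences are shown for 4 members, with letters of the myeloid transcription factor PU.1, encoded by Spi1, marked. A part of PU.1 in the values of the members was not tested. PU.1 prefers sites with the letters GAGGAA, which read TTCCTC on the other strand. RefSeq promoters (GRCm38.p6, 250 bases before to 50 after the start) were present for 7 of the 10 members, in 8 entries. The letters occurred on either strand in 5 of the 8 entries, covering 5 of the 7 members (Ptprc, Fcgr1, Itgam, Cd68 and Aif1), and in 28.3% of all 32851 promoters. A match is a description of the letters and not a binding site. Cd68 (chr11:69666121-69666420, minus strand) held 2 matches, Itgam (chr7:128062390-128062689, plus strand) held 3, and Fcgr1 (chr3:96293920-96294219, minus strand) held 1. Csf1 (chr3:107760420-107760719, minus strand), the ligand of the set, held none and is shown for comparison. Mertk and another Ptprc entry held none either. Each is written 5′ to 3′ on the strand of the gene, with the matches in capitals.
Cd68: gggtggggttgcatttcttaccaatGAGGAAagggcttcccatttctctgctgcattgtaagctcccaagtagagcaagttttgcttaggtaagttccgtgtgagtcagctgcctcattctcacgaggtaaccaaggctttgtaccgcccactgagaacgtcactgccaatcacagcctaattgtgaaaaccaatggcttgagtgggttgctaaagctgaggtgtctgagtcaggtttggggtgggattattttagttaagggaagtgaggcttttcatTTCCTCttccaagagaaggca
Itgam: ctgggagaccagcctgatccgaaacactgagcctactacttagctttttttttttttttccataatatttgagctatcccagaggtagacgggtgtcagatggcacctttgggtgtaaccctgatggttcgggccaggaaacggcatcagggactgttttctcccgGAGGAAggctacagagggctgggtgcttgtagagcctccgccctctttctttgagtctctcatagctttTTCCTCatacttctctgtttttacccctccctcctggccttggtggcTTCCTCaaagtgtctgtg
Fcgr1: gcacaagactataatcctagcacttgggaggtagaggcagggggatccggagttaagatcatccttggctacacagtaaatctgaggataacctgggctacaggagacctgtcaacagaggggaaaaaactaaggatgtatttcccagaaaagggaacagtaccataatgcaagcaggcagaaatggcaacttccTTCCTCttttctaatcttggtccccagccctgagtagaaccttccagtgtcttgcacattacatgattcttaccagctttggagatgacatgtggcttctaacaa
Csf1: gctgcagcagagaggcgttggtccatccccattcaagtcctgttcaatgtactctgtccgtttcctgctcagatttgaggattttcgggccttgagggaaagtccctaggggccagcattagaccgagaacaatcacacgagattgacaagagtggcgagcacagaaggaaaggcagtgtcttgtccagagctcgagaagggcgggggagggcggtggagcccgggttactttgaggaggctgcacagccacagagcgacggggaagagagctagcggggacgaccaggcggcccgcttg

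In sham hearts the 10 genes were ordered on the deposited log2 scale. That scale differed from log2 CPM by a constant for each gene (median SD over libraries 0.0024 over 8489 genes), and it was taken as a level per length. Tyrobp (3.87 ± 0.05, mean ± SD, n = 3), Csf1 (3.75 ± 0.51) and Csf1r (3.40 ± 0.17) were the highest, and neighbours among them overlapped. Cd68 followed at 2.94 ± 0.04 and Adgre1 at 2.13 ± 0.13, both apart from their neighbours. Mertk (0.99 ± 0.28), Aif1 (0.80 ± 0.18), Itgam (0.50 ± 0.61), Ptprc (0.29 ± 0.37) and Fcgr1 (between -0.34 and 0.19) each overlapped the next in the order. By mean level per length, Csf1 was at place 2 of the 10 in S and at place 4 in T and in A + T.

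**Figure D1:**
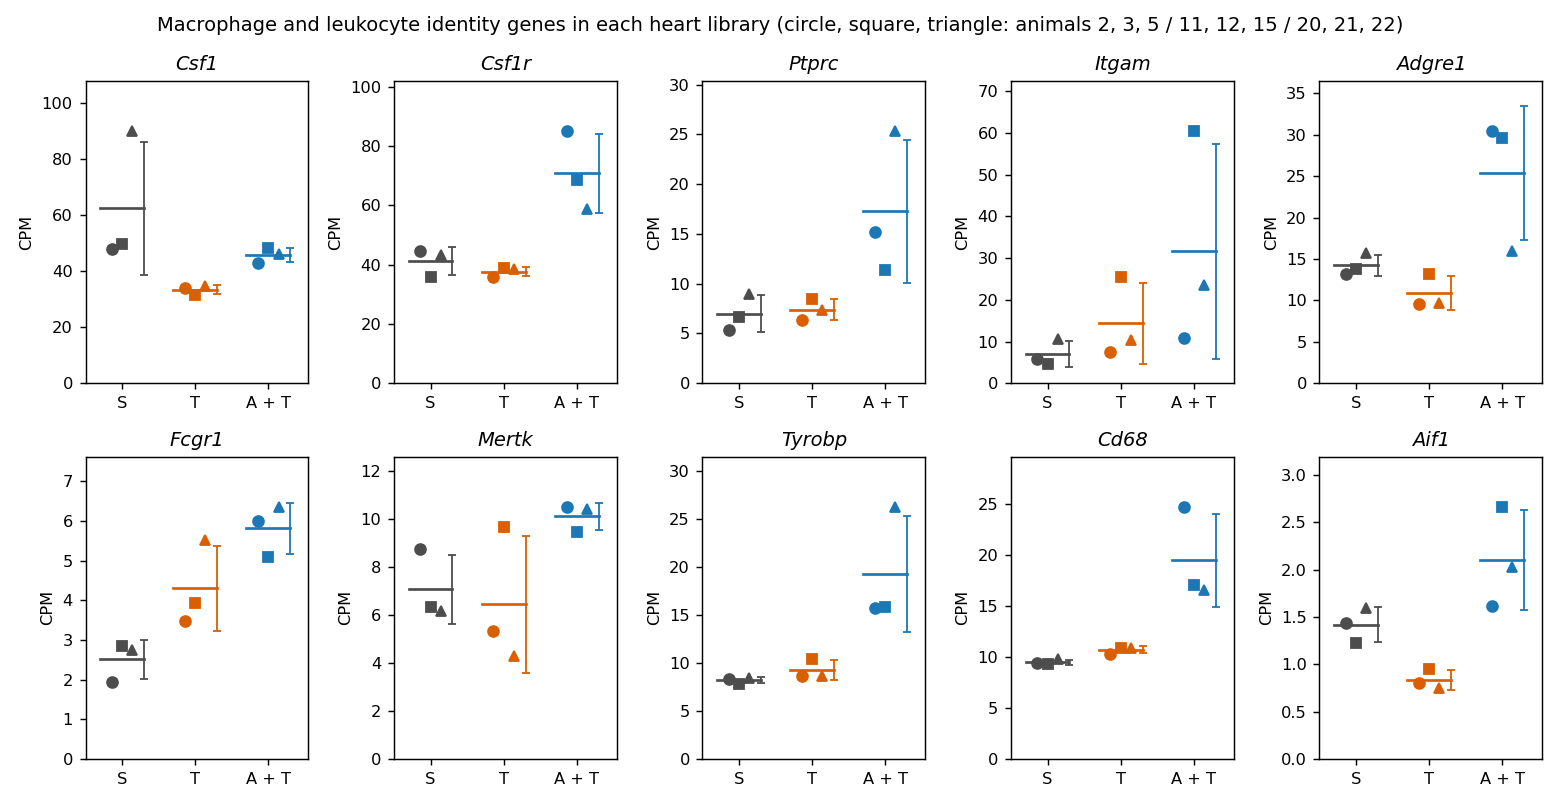
CPM (y axis, from 0, on a scale of its own in each panel) of each gene in each library, by group on the x axis. Points are animals, the horizontal line is the group mean and the bar is 1 SD (n = 3). All A + T points of Csf1r, Ptprc, Adgre1, Tyrobp, Cd68 and Aif1 lie above all T points, whereas those of Itgam, Fcgr1 and Mertk overlap them.

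By group mean, A + T hearts had the highest level of 9 members, all but Csf1. Bracketed values beside a gene are log2 fold changes, ± SE where given. In T vs. S, labelled as tumour hosts against sham mice, 1 member rose (Fcgr1) and 1 fell (Csf1) by edgeR's quasi-likelihood test with the adjusted P-value under 0.05, so 2 of 10 were called against 21.2% of all genes in either direction. At the study's thresholds (fold change of 1.5 or more, unadjusted P-value under 0.05), 1 member was higher and 2 were lower (Csf1 and Aif1), against 14.2% of all genes in either direction. The median log2 fold change was -0.02 over the members and -0.004 over all genes tested. In 3 members all T libraries were above all S libraries, and in 3 they were below, while 21.1 and 21.5% of all genes were so separated. The called count was thus near the share over all genes.

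A + T vs. T, the comparison of the labelled hosts with and without ACVR2B/Fc, called 6 of 10 members higher and none lower (6 and 0 by DESeq2), against 3.09% of all genes called higher. The 6 were Csf1r, Ptprc, Adgre1, Tyrobp, Cd68 and Aif1. Mertk joined them at the study's thresholds, giving 7 members against 6.50% of all genes. In 7 members every A + T library was above every T library, against 12.3% of all genes. The median log2 fold change of the 10 members was 0.99 (0.01 over all genes), and all 10 values were positive. Only Csf1r was called without animal 11 of T, where the calls over all genes fell too, from 413 to 54 higher. Without animals 12 and 22, 6 members were called, but not the same 6, as Aif1 was not among them.

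A + T vs. S asked whether treated hosts differed from sham mice, and again 6 members were called higher and none lower, with 4.67% of all genes higher. Csf1r, Ptprc, Adgre1, Tyrobp and Cd68 recurred, and Fcgr1 took the place of Aif1. At the study's thresholds 7 members were higher (5.82% of all genes), Itgam being the addition. DESeq2 called 7. In 9 members all A + T libraries exceeded all S libraries, against 16.0% of all genes, and the exception was Csf1. The median was 0.94 (0.003 over all genes). Leaving out animal 2 of S left 3 members called, and leaving out animals 12 and 22 left 7. This comparison and A + T vs. T share the A + T libraries, so their counts are not independent.

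**Figure D2:**
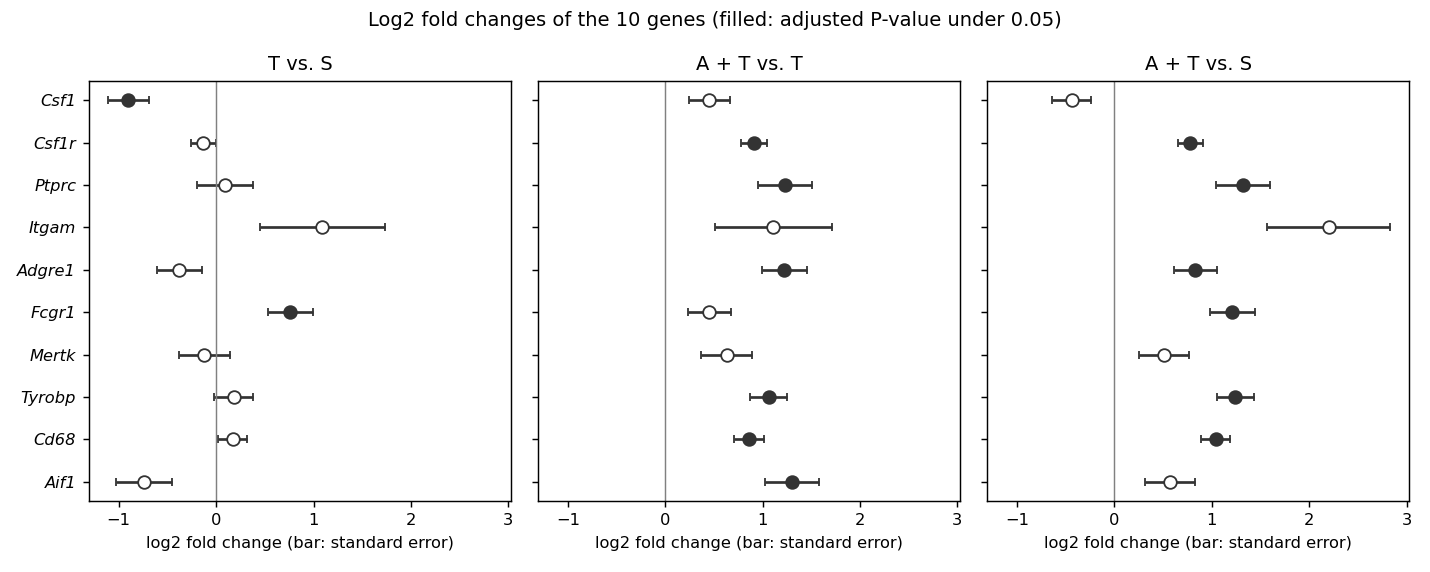
Log2 fold change (x axis) of each gene (y axis) in T vs. S (left), A + T vs. T (middle) and A + T vs. S (right), with the standard error as a bar. Filled points have an adjusted P-value under 0.05. In the middle panel 6 points are filled and all 10 lie right of 0, while in the left panel Csf1 (-0.90) and Fcgr1 (0.76) alone are filled.

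Csf1, the ligand (chr3:107741048-107760469), measured 47.8, 49.7 and 90.0 CPM in S, 34.1, 31.6 and 34.7 CPM in T, and 43.0, 48.2 and 46.1 CPM in A + T. All T libraries were below all others, and animal 5 of S stood well above its group. Csf1 fell 1.86-fold in T vs. S (log2 fold change -0.90 ± 0.21, SE, edgeR adjusted P = 0.0121). It was called in 9 of 9 fits that left out 1 library, between -1.05 and -0.54, the latter without animal 5. In A + T vs. T the value was 0.45 ± 0.21 (adjusted P = 0.23), with no overlap between the groups. A + T vs. S gave -0.44 ± 0.20 (adjusted P = 0.195), and -0.09 without animal 5.

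Genes of fibroblasts and endothelium were also lower in T than in S as groups. All 8 fibroblast genes fell in T vs. S (median -1.37), as did 6 of 8 endothelial genes (median -0.74), where 1467 of all 13364 genes fell and 1371 rose. Col1a2, a collagen chain of fibroblasts, fell most in its list (-1.70, edgeR adjusted P = 0.00139), and Kdr, the VEGF receptor of endothelium, in the other (-1.01, adjusted P = 0.00854). The summed fibroblast level was 1495 to 1699 CPM in S, 875 to 991 CPM in T and 1117 to 1672 CPM in A + T. The endothelial sum was 1186 to 1383, 700 to 905 and 860 to 1040 CPM. Within a group, Csf1 and these sums could differ in order. Animal 5 of S, highest in Csf1 (90.0 CPM), had the lowest fibroblast and endothelial sums of S (1495 and 1186 CPM). Animal 20, lowest in Csf1 within A + T (43.0 CPM), had the highest fibroblast sum there (1672 CPM) and the lowest endothelial sum (860 CPM). In A + T vs. T, 6 fibroblast genes rose, but 0 were called by edgeR without animal 11 of T and 3 without animal 12. The 1 endothelial gene called there was lost in 6 of the 9 fits with 1 library left out and without animals 12 and 22. The part of these cells in the Csf1 result was not tested. Il34, the other ligand of the CSF1 receptor, had a log2 fold change of -0.24 (adjusted P = 0.586) in T vs. S and 0.13 (adjusted P = 0.827) in A + T vs. T by the same test.

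Csf1r, the receptor, measured 44.7, 36.0 and 43.3 CPM in S, 35.8, 38.9 and 38.4 CPM in T, and 85.0, 68.5 and 58.9 CPM in A + T. S and T overlapped, and every A + T library was above both. The rise was 1.88-fold in A + T vs. T (0.91 ± 0.13, edgeR adjusted P = 0.00696) and 1.71-fold in A + T vs. S (0.78 ± 0.13, adjusted P = 0.00859). Both were called in 9 of 9 fits with 1 library left out. Without animals 12 and 22 they were 1.05 and 0.90. T vs. S gave -0.13 ± 0.13 (adjusted P = 0.507).

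The log2 ratio of ligand to receptor within a library, per length, was -0.09, 0.27 and 0.86 in S. It was -0.26, -0.49 and -0.33 in T and -1.17, -0.70 and -0.54 in A + T. The groups did not overlap, S being highest and A + T lowest. The group means were 0.35 ± 0.48, -0.36 ± 0.12 and -0.80 ± 0.33. The differences were -0.71 for T vs. S, -0.44 for A + T vs. T and -1.15 for A + T vs. S. Each of these 3 comparisons had P = 0.1 in a two-sided exact permutation test, the smallest value that 3 libraries against 3 allow, so none could pass 0.05. In T vs. S the difference came with a lower Csf1, and in A + T vs. T with a higher Csf1r.

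Of 8 tested genes around CSF1 receptor signalling, which include the receptors for the related factor GM-CSF, T vs. S had 2 that rose, A + T vs. T had 1, and 4 rose in A + T vs. S. Csf2rb2 rose most in T vs. S (1.78, edgeR adjusted P = 0.00147), from 1.05 to 2.46 CPM in S to 6.08 to 6.66 CPM in T. Csf2ra, the ligand-binding chain of the GM-CSF receptor, was the 1 gene of A + T vs. T (0.77, edgeR adjusted P = 0.0175), and it was not called without animal 11 of T. The T vs. S count was 1 without animal 2 or 3 of S or any 1 animal of T, and the A + T vs. S count was 2 without animal 2 or 3 of S. Over all genes, 1371 of 13364 rose in T vs. S, 413 in A + T vs. T and 624 in A + T vs. S.

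Ptprc, the leukocyte phosphatase CD45 (chr1:138062861-138175708), measured 5.36, 6.65 and 8.97 CPM in S, 6.32, 8.50 and 7.39 CPM in T, and 15.2, 11.4 and 25.3 CPM in A + T. A + T was above both other groups in every library, and animal 22 was its highest. Ptprc rose 2.34-fold in A + T vs. T (1.23 ± 0.28, edgeR adjusted P = 0.0338) and 2.50-fold in A + T vs. S (1.32 ± 0.28, adjusted P = 0.0207). The first call held in 4 of 9 fits with 1 library left out, with a log2 fold change of 0.85 without animal 22. The second held in 7 of 9, with 0.95 without that animal, and its highest adjusted P was 0.0937, without animal 2 of S.

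Other genes carried by all leukocytes were counted too. None of 17 passed in T vs. S by edgeR (0 called, 1 at an unadjusted P-value under 0.05 and 1 by DESeq2), 9 rose in A + T vs. T (median 0.96) and 8 in A + T vs. S (median 1.02), where 413 and 624 of all 13364 genes rose. Lcp1, an actin-bundling protein of leukocytes, rose most in A + T vs. T (2.38-fold, edgeR adjusted P = 0.0122). The list summed to 106 to 141 CPM in S, 105 to 134 CPM in T and 189 to 268 CPM in A + T. The count in A + T vs. T was 1 without animal 11 of T, 3 without animal 20, 4 without animal 15, 5 without animal 21 or animal 3 of S, and 8 without animals 12 and 22. The count in A + T vs. S was 3 without animal 2 or 3 of S.

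Itgam, the integrin alpha chain CD11b of myeloid cells (chr7:128062640-128118491), measured 5.70, 4.62 and 10.6 CPM in S, 7.37, 25.5 and 10.3 CPM in T, and 10.9, 60.4 and 23.5 CPM in A + T. It was the most uneven member, with animals 12, 21 and 22 at or above 23.5 CPM and the other 6 libraries at or below 10.9 CPM. No comparison was called by edgeR: T vs. S gave 1.09 ± 0.64 (adjusted P = 0.251), A + T vs. T 1.11 ± 0.60 (adjusted P = 0.299) and A + T vs. S 2.20 ± 0.63 (adjusted P = 0.0573). Single libraries set these values. The first was 0.36 without animal 12. The second was 0.24 without animal 21 and 1.85 without animal 12. The third was 1.33 without animal 21, and 2.39 (adjusted P = 0.0272) without animals 12 and 22.

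Genes of macrophages of the serous cavities, a list of 12 drawn up after the values were seen, differed between the libraries. In 8 of the 12, animals 12 and 21 were both above all other libraries. The other 4 were not: Gata6 was 74.4 to 96.2 CPM across all libraries, Icam2 was 9.45 and 12.3 CPM in animals 12 and 21, below every S library, Vsig4 was highest in animal 20 (45.8 CPM), and Arg1 was higher in animal 22 than in animal 12. The list summed to 421 CPM in animal 12, 713 CPM in animal 21 and 280 CPM in animal 22, and to 163 to 255 CPM in the others. Alox15, a lipoxygenase of those cells, measured 32.3, 36.5 and 4.37 CPM in animals 12, 21 and 22 and 0.186 to 1.78 CPM elsewhere. Cd5l measured 11.5, 58.8 and 10.8 CPM, and 0.102 to 1.48 CPM elsewhere. The part of such cells in the Itgam values was not tested. Without animals 12 and 21, A + T vs. T was 0.97 (adjusted P = 0.263) and A + T vs. S 1.33 (adjusted P = 0.0863) for Itgam by edgeR.

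Among 7 tested leukocyte integrins and their ligands, 2 fell in T vs. S, 2 rose in A + T vs. T, and 4 rose and 1 fell in A + T vs. S. Over all 13364 genes, 1467 fell in T vs. S, 413 rose in A + T vs. T, and 624 rose and 486 fell in A + T vs. S. Without animal 2 or 3 of S, 2 integrin genes rose in A + T vs. S. The 1 that fell, Jam3, was not called without any 1 animal of S or without animal 20 or 21, and 2 fell without animals 12 and 22. Itgal, the CD11a chain, rose most in A + T vs. T (2.75, edgeR adjusted P = 0.00269), with 10.9, 10.8 and 19.5 CPM in A + T and 1.90 to 2.23 CPM in T. Itga4 was the other (1.63, adjusted P = 0.00342). The genes that fell in T vs. S were Vcam1 (-1.18, adjusted P = 0.00317) and Jam3 (-0.65, adjusted P = 0.00542), adhesion molecules that vascular and stromal cells also carry.

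Adgre1, the macrophage surface protein F4/80 (chr17:57358691-57483527), measured 13.2, 13.8 and 15.7 CPM in S, 9.60, 13.2 and 9.73 CPM in T, and 30.4, 29.6 and 16.0 CPM in A + T. Animals 20 and 21 were far above all S and T libraries, whereas animal 22 was just above the highest sham library. Adgre1 rose 2.32-fold in A + T vs. T (1.22 ± 0.23, edgeR adjusted P = 0.0175) and 1.78-fold in A + T vs. S (0.83 ± 0.22, adjusted P = 0.0468). Without animal 22 these were 1.46 and 1.09. The second call held in 2 of 9 fits with 1 library left out. T vs. S gave -0.38 ± 0.23 (adjusted P = 0.266), and -0.55 (adjusted P = 0.00681) without animals 12 and 22.

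Cd68, the lysosomal protein of macrophages (chr11:69664213-69666153), measured 9.40, 9.29 and 9.76 CPM in S, 10.3, 10.9 and 10.9 CPM in T, and 24.7, 17.1 and 16.6 CPM in A + T. It was the steadiest member in S, with a coefficient of variation of 2.63%, and animal 20 was its highest library. The rise was 1.82-fold in A + T vs. T (0.86 ± 0.15, edgeR adjusted P = 0.0126) and 2.05-fold in A + T vs. S (1.04 ± 0.15, adjusted P = 0.00469). These were called in 8 and 9 of 9 fits with 1 library left out, and without animals 12 and 22 they were 0.99 and 1.15. All T libraries were above all S libraries, but T vs. S was 0.17 ± 0.15 (adjusted P = 0.454).

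Aif1, the actin-binding protein IBA1 (chr17:35170991-35176068), had the fewest counts, 8 to 37 in a library. It measured 1.44, 1.22 and 1.59 CPM in S, 0.805, 0.951 and 0.749 CPM in T, and 1.61, 2.66 and 2.03 CPM in A + T. The groups did not overlap, with T lowest and A + T highest. Aif1 rose 2.47-fold in A + T vs. T (1.30 ± 0.28, edgeR adjusted P = 0.028), a call held in 5 of 9 fits with 1 library left out and lost without animals 12 and 22 (adjusted P = 0.0573). T vs. S was -0.74 ± 0.29 (adjusted P = 0.0986) and A + T vs. S 0.57 ± 0.26 (adjusted P = 0.201).

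Of 21 tested macrophage core genes, 4 rose in T vs. S, 9 rose and 1 fell in A + T vs. T, and 9 rose in A + T vs. S, with medians of 0.17, 0.42 and 0.53. Over all 13364 genes, 1371 rose in T vs. S, 413 rose and 373 fell in A + T vs. T, and 624 rose in A + T vs. S. The count that rose in T vs. S was 1 without animal 2 or 3 of S or animal 12, and 2 without animal 5, 11 or 15 or without animals 12 and 22. In A + T vs. T, 3 rose without animal 11, and the fall was not called without animal 11 or 12 or without animals 12 and 22. Mpeg1, a pore-forming protein of macrophages, rose most in A + T vs. T (1.92, edgeR adjusted P = 0.00677), from 11.1 to 18.7 CPM in T to 85.6, 39.8 and 53.0 CPM in A + T. Tlr4, the endotoxin receptor, fell in the same comparison (-0.54, adjusted P = 0.0236) after the opposite call in T vs. S (0.91, adjusted P = 0.000591). Of 10 myeloid transcription factors, T vs. S had 1 that rose, A + T vs. T had 2, and 4 rose in A + T vs. S. Spi1 rose in both A + T comparisons (1.06, adjusted P = 0.021, and 1.12, adjusted P = 0.0126). The T vs. S count was 0 without animal 2 or 3 of S or animal 11 or 12. In A + T vs. T it was 0 without animal 11 and 4 without animals 12 and 22, and in A + T vs. S it was 0 without animal 2 or 3 of S and 1 without animal 5.

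Fcgr1, the high-affinity IgG receptor CD64 (chr3:96282909-96293969), measured 1.94, 2.84 and 2.75 CPM in S, 3.47, 3.92 and 5.52 CPM in T, and 6.0, 5.10 and 6.35 CPM in A + T. T lay above S in every library, and A + T overlapped T. Fcgr1 rose 1.70-fold in T vs. S (0.76 ± 0.23, edgeR adjusted P = 0.0384), a call held in 3 of 9 fits with 1 library left out. It rose 2.32-fold in A + T vs. S (1.21 ± 0.23, adjusted P = 0.0123), which held in 8 of 9. Without animals 12 and 22 these were 0.82 and 1.15. A + T vs. T was 0.45 ± 0.22 (adjusted P = 0.255). Of 4 tested genes listed with the Fc gamma receptors, none was called in T vs. S (0 by edgeR, 0 at an unadjusted P-value under 0.05 and 0 by DESeq2). Fcgr3 alone was called in A + T vs. T (0.68, edgeR adjusted P = 0.0271), where 413 of all 13364 genes rose. That call was lost without animal 11, 12 or 20 or without animals 12 and 22. Fcgr2b went the other way there (-0.78, edgeR adjusted P = 0.0847), and DESeq2 called 1 of the 4 genes higher and 1 lower.

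Mertk, the receptor for uptake of dying cells (chr2:128698956-128802894), measured 8.74, 6.34 and 6.15 CPM in S, 5.33, 9.69 and 4.30 CPM in T, and 10.5, 9.48 and 10.4 CPM in A + T. Animal 12 of T reached the A + T range, while the other T libraries were below S. No comparison was called by edgeR: A + T vs. T gave 0.63 ± 0.26 (adjusted P = 0.189), A + T vs. S 0.51 ± 0.26 (adjusted P = 0.24) and T vs. S -0.12 ± 0.26 (adjusted P = 0.783). Without animal 12, A + T vs. T was 1.06 (adjusted P = 0.0274). Of 4 related TAM receptors and ligands, Axl alone fell in T vs. S (-0.83, edgeR adjusted P = 0.00454), and 2 fell without animals 12 and 22. Over all 13364 genes, 1467 fell in T vs. S, and 1745 without those animals. None of the 4 was called in A + T vs. T (0 by edgeR, 1 at an unadjusted P-value under 0.05 and 0 by DESeq2).

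Tyrobp, the adaptor DAP12 that passes signals from activating receptors (chr7:30413760-30417585), measured 8.35, 7.82 and 8.39 CPM in S, 8.67, 10.4 and 8.61 CPM in T, and 15.7, 15.8 and 26.2 CPM in A + T. A + T was above both groups, with animal 22 highest. The rise was 2.08-fold in A + T vs. T (1.06 ± 0.19, edgeR adjusted P = 0.0163) and 2.36-fold in A + T vs. S (1.24 ± 0.19, adjusted P = 0.00707). Without animal 22 these were 0.76 and 0.95. They were called in 8 and 9 of 9 fits with 1 library left out. T vs. S was 0.18 ± 0.20 (adjusted P = 0.564).

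Of 10 tested genes listed around the TYROBP adaptor, not all of which couple to it, T vs. S had 1 that rose. A + T vs. T had 5, and 3 rose in A + T vs. S. Over all genes, 1371 of 13364 rose in T vs. S, 413 in A + T vs. T and 624 in A + T vs. S. The A + T vs. T count was 0 without animal 11 of T, 1 without animal 12 or 15, 2 without animal 20 or without animals 12 and 22, and 3 without animal 22 or any 1 animal of S. The A + T vs. S count was 1 without animal 2 or 3 of S and 5 without animals 12 and 22. The 5 genes of A + T vs. T were receptors and a sister adaptor: Cd300lb, Clec5a, Trem2, Fcer1g and Sirpa. Cd300lb, a receptor that couples to the adaptor, rose most (2.10, edgeR adjusted P = 0.0126), with 5.26, 3.37 and 5.05 CPM in A + T and 0.892 to 1.22 CPM in T. Trem2, a lipid receptor coupled to the same adaptor, rose by 1.08 (adjusted P = 0.0481). Syk, the kinase below both adaptors, was the 1 gene of T vs. S (0.53, adjusted P = 0.00437).

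**Figure D3:**
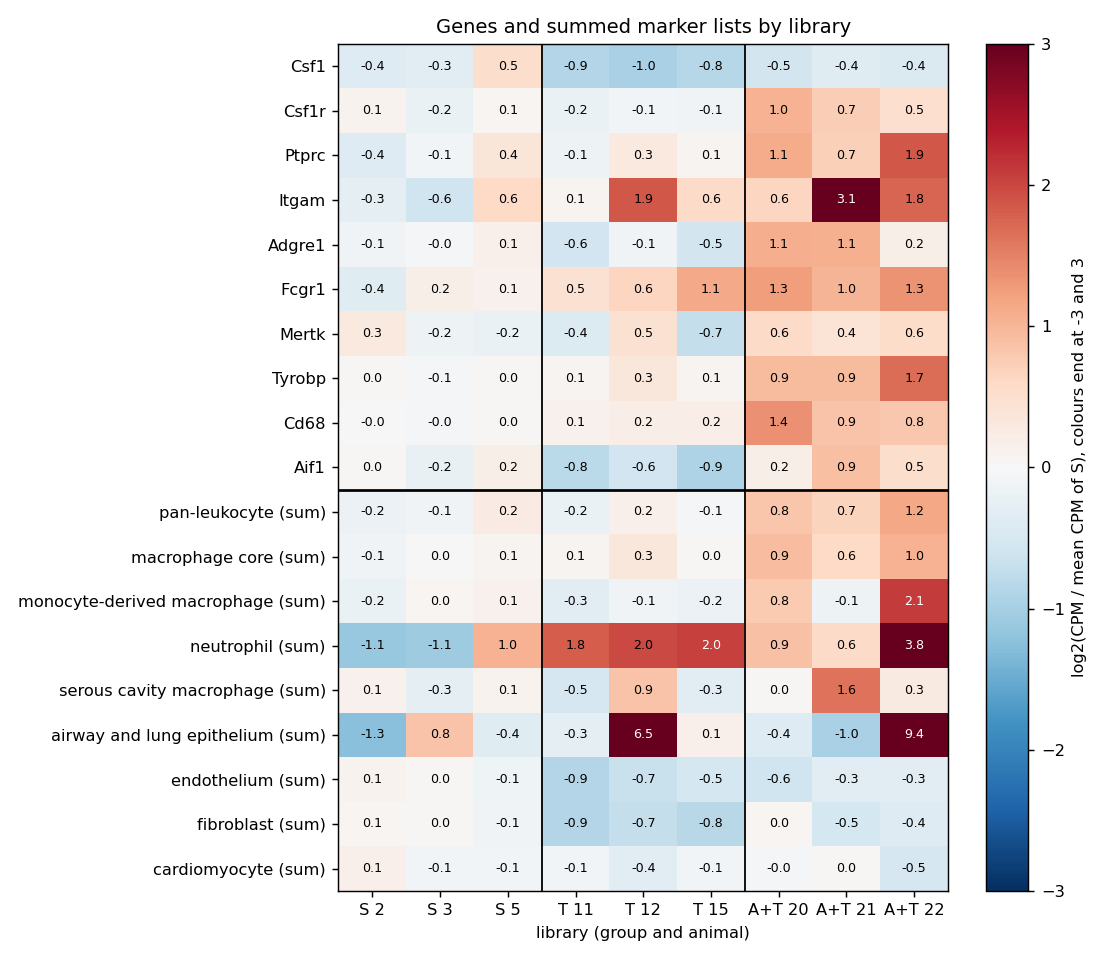
Log2 ratio of CPM to the mean CPM of S for each gene and for summed marker lists (rows) in each library (columns), with the value printed in each cell and colours ending at -3 and 3. Itgam and the serous cavity list are high in T 12 and A+T 21, airway and neutrophil sums are high in A+T 22, and A+T 20 is high in Csf1r, Adgre1 and Cd68 without an airway signal.

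The A + T libraries did not share 1 profile. Animal 20 had the highest Csf1r (85.0 CPM), Cd68 (24.7 CPM) and Adgre1 (30.4 CPM) of all libraries. Its airway sum was 1.61 CPM, its neutrophil sum 28.6 CPM and its serous cavity sum 239 CPM, each within the range of the other groups. The alveolar macrophage list summed to 15.6, 43.1 and 38.1 CPM in animals 20, 21 and 22. Single genes of these lists could still be high in animal 20. Vsig4 was 45.8 CPM there, against 3.47 to 8.32 CPM in S and T. Atp6v0d2 of the alveolar list, too low to test, was 2.66 CPM against 0.119 to 0.332 CPM, whereas Marco was 0.247 CPM in animal 20. Animal 21 had the highest Itgam and Aif1. Animal 22 had the highest Ptprc, Tyrobp and Fcgr1 and, within A + T, the lowest Adgre1, Cd68 and Csf1r. Its monocyte-derived macrophage list summed to 180 CPM, against 73.0 and 38.0 CPM in animals 20 and 21. The part of neutrophils, monocytes or airway tissue in the values of animal 22 was not tested.

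Each member was also set against the 17 pan-leukocyte genes of the same library, as a log2 ratio, a description with no test. The list sum itself was higher in every A + T library than in any other. The A + T mean minus the T mean was -0.02 for Csf1r, -0.08 for Cd68, 0.10 for Tyrobp, 0.24 for Ptprc, 0.26 for Adgre1 and 0.39 for Aif1. For the 6 genes called in A + T vs. T, the ratio differed by at most 0.39 where the genes themselves differed by 0.86 to 1.30. The list sum averaged 118 CPM in T and 223 CPM in A + T, so smaller differences for genes that rose follow from the division. In 9 of 10 members A + T and T overlapped in this ratio, where 79.0% of all genes did not, and Fcgr1 (-0.46) was below T in every A + T library. Against S, 9 of 10 overlapped too, where 82.3% of all genes did not, and Csf1 was lower in A + T in every library (-1.28). Because the list sum is higher in A + T, a gene that did not change has a lower ratio there. The 79.0 and 82.3% thus largely reflect that sum and are no yardstick for the members. The list was also chosen with earlier results known, so no conclusion is drawn from the ratios or their overlap. Between T and S, 6 of 10 overlapped, where 22.5% of all genes did not, with Fcgr1 above S and Csf1, Adgre1 and Aif1 below it in every T library. Itgam had the widest spread, from -4.29 to -1.65 in A + T.

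**Figure D4:**
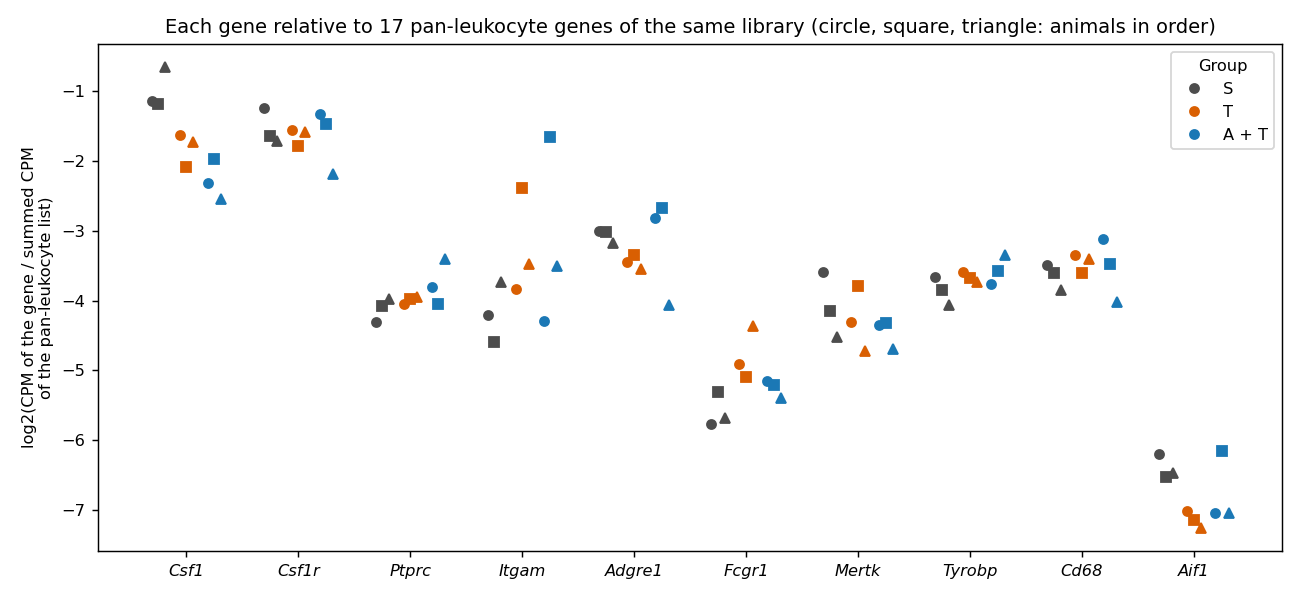
Log2 of the CPM of each gene (x axis) over the summed CPM of 17 pan-leukocyte genes in the same library (y axis), with 1 point per library and the group as colour. Csf1r, Ptprc, Tyrobp and Cd68 overlap across groups, Csf1 in A + T lies below S, and Itgam spreads widely within T and A + T.

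The genes with the most similar pattern were found by the root mean square difference of centred log2 CPM over 9 libraries, among 12668 genes. Csf1r and Cd68 were nearest to each other among the members (0.16), as were Ptprc and Tyrobp (0.22). Outside the set, Csf1r was nearest to Engase (0.13), Cd68 to Nup210 (0.17) and Tyrobp to Csf2ra (0.17). Itgam was nearest to Itgb2 (0.41), the beta chain that pairs with it. Adgre1 was nearest to Slc7a8 (0.20), Aif1 to Afap1l2 (0.23), Mertk to Stx1a (0.18), Fcgr1 to E130102H24Rik (0.12) and Csf1 to Slc35g2 (0.16). No member was close to Csf1, the nearest being Aif1 (0.48), and Csf1 deviated from its own mean by 0.42.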

How the data were processed

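Heart RNA of 9 NSG mice was sequenced as 75-base paired ends. Per the study's methods, the authors aligned reads to mm10 with STAR and deposited counts per RefSeq gene from featureCounts, counting strand-matched, uniquely mapped pairs. The deposited log2 values, also made by the authors, were used for levels per length and in 1 alternative; their normalization is not given in the sources used here. Groups came from the sample labels, and each animal was counted as 1 replicate.

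Genes under 0.5 CPM in more than 4 of 9 libraries were removed (526 of 13890). The other 13364 were fitted in all 9 libraries at once with edgeR 4.0.16 (R 4.3.3; TMM, glmQLFit and glmQLFTest), with Benjamini-Hochberg adjustment over all genes tested. CPM values use TMM library sizes. An adjusted P-value under 0.05 was a call, and the study's thresholds (P-value under 0.05, fold change of at least 1.5) were applied beside it. Alternatives used DESeq2 1.42.0, limma 3.58.1 on the log2 values, other scalings and filters, and libraries left out. The fit was also tested on simulated data, drawn from the means and dispersions of the real fit. Exact permutation tests were used for single values, at 3 libraries against 3.

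The members and gene lists were chosen with earlier results of these data known, and the serous cavity list and the removal of animals 12 and 22 or 12 and 21 after the values were seen. All members were named. From each list, the gene that rose or fell most at the adjusted threshold in T vs. S and in A + T vs. T, and the genes nearest in pattern, could be named (that of Ptprc is not reported here); Il34, Spi1, Itga4, Jam3, Trem2, Clec5a, Fcer1g, Sirpa, Alox15, Cd5l, Gata6, Icam2, Vsig4 and Arg1 were named after their values were seen. Zbtb46, Siglech, Flt3, Cpa3, Mcpt4, S100a8, S100a9, Fcgr2b, Atp6v0d2 and Marco were also named after their values were seen. Coordinates come from GENCODE release M21 (GRCm38), promoters from RefSeq. A count of 3 was worth 0.152 to 0.281 CPM. Figures were drawn with matplotlib 3.10.9.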

Additional observations from a re-analysis of the deposited data

How the results depend on the processing

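The count of members at an adjusted P-value under 0.05 in T vs. S (2) was 1 with scaling by library size only, 1 to 2 over the fits with 1 library left out, and 0 without animals 12 and 21, where edgeR left 3 members past the study's thresholds. At those thresholds the T vs. S count (3) was 1 to 3 with 1 library left out. The A + T vs. T count (6) was 2 with only the compared groups in the fit and 1 to 7 with 1 library left out, the lowest without animal 11 of T. The A + T vs. S count (6) was 3 to 7, the lowest without animal 2 of S. Members past the study's thresholds in A + T vs. T and in A + T vs. S (7 each) stayed within 1.5 times under every alternative run. The sign turned for Ptprc in T vs. S, which ranged from -0.061 to 0.30 with 1 library left out and was -0.017 without animals 12 and 22 and -0.026 without animals 12 and 21, and for Mertk, which ranged from -0.55 to 0.094. Neither gene was called there, and no other member changed sign. The causes were not tested.

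No paired analysis was possible because the groups share no replicate numbers. With 3 animals in each group, single libraries set the spread, and Aif1 and Fcgr1 rest on 8 to 103 counts. The groups labelled T and A + T each hold at least 1 library with genes of other tissues, so the members' levels there cannot be assigned to heart tissue alone.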

Other observations

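Other immune genes outside the set were called as well. Cd207, the langerin of dendritic cells, measured 1.44, 4.72 and 3.91 CPM in S, 0.867, 0.297 and 0.187 CPM in T, and 8.78, 6.46 and 9.43 CPM in A + T. It fell in T vs. S (-2.80, adjusted P = 0.00521 from edgeR) and rose in A + T vs. T (4.09, adjusted P = 0.00356). The groups did not overlap. Zbtb46, the other dendritic cell gene tested, was not called in T vs. S (-0.11) or A + T vs. T (0.18). Among those too low to test, Siglech was lower in A + T (0.144 to 0.308 CPM) than in S (1.02 to 1.44 CPM) and T (0.372 to 1.07 CPM). Flt3, at 0 to 14 counts, was at 0.359 to 0.863 CPM in A + T and 0 to 0.178 CPM in T. In S it was at 0 to 0.508 CPM, which overlapped A + T. Kit, the stem cell factor receptor of mast cells, was lower in all T libraries (0.682 to 1.22 CPM) than in S (3.26 to 3.91 CPM). It measured 2.84, 2.37 and 10.2 CPM in A + T and was the only mast cell gene tested. Cpa3 and Mcpt4, too low to test, were highest in animal 12 of T (0.832 and 1.49 CPM). They were at 0 to 0.187 CPM in animals 11 and 15. Lcn2, an antimicrobial protein of neutrophils and stressed tissue, measured 4.98, 3.81 and 13.5 CPM in S and 38.8, 39.2 and 45.6 CPM in T. In A + T it measured 14.7, 9.19 and 21.8 CPM. It was the 1 of 6 tested neutrophil genes called in T vs. S (2.52, adjusted P = 0.00244 from edgeR), where 1371 of 13364 genes rose. None of the 6 was called in A + T vs. T. There Lcn2 gave -1.43, S100a8 2.14 and S100a9 2.10, with animal 22 highest in S100a8 and S100a9 (46.3 and 113 CPM). Ccr2, the chemokine receptor of recruited monocytes, was the 1 of 8 monocyte-derived macrophage genes called in A + T vs. T (1.80, adjusted P = 0.0336), with 7.67, 3.02 and 10.7 CPM in A + T and 1.68 to 2.62 CPM in T. Over all genes, edgeR called 413 of 13364 higher there. DESeq2 called 3 of the 8 monocyte-derived macrophage genes. The count from edgeR was 5 without animal 21, 1 without animal 2 of S and 0 without any 1 of the other animals, and the median of the 8 was 1.30 with all libraries and 0.58 without animal 22.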
